A study of Mus musculus with 2 samples.

Results

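Expression of the Hox cluster genes was examined in the anterior brain of mouse embryos lacking functional Plzf. Every gene on the array whose name is Hox followed by a cluster letter (a to d) and a number was taken. This gave 39 genes read by 52 probes, of 37074 gene names and 56605 gene probes in all. There were 11 genes of HoxA, 10 of HoxB, 9 of HoxC and 9 of HoxD. RNA came from the forebrain and midbrain of E10.5 embryos of 2 genotypes. Wild type was C57BL/6. The genetic background of the mutants is not named in the sources used here, so genotype and strain may differ together. The study names wild-type littermates for its E10.5 qRT-PCR, but does not say this of the arrays. The luxoid mutant (Plzf lu/lu) is homozygous in every cell for a spontaneous point mutation in the first coding exon of Plzf. The mutation is reported to leave a truncated protein. On each of 2 two-colour Agilent arrays, 1 wild-type sample was labelled with Cy3 and 1 lu/lu sample with Cy5. The dyes were not swapped, so dye and genotype cannot be told apart. The labels call the arrays biological replicates, and the study calls their samples independent groups. How many embryos were pooled for each is not given in the sources used here.

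Hox genes encode homeodomain transcription factors that give cells their position along the head-to-tail axis. Their order along each cluster follows the order of their domains in the body, so that low paralogue numbers (3′ in the cluster) reach furthest forward, into the hindbrain, and high numbers (5′) are used in the trunk, tail, genitalia and distal limb. The forebrain and midbrain lie in front of the Hox domains. Hox proteins bind DNA through a homeodomain, whose recognition helix enters the major groove, and many of them contact Pbx partners through a short hexapeptide. Plzf, encoded by Zbtb16, is a zinc finger repressor that limits Hox expression in the developing limb. The comparison therefore asks whether Hox RNA was present in this tissue at all, and whether it was higher without functional Plzf.

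The array reads each gene with probes of 60 bases, and 4 of them are shown because they define what was and was not measured. The first 2 belong to genes that were above background throughout. The last 2 belong to posterior genes that were at background throughout. Capitals mark codons found by translation, either those of the conserved core of the homeodomain recognition helix (Hoxc11) or those of the hexapeptide core (Hoxa6). Coordinates are mm9, as the array files give them.
Hoxa6 (chr6:52158194-52158253, minus strand): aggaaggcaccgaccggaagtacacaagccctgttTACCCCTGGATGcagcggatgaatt
Hoxa9 (chr6:52174477-52175581, minus strand, spliced across an intron): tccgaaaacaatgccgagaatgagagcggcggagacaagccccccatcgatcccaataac
Hoxc11 (chr15:102787015-102787074, plus strand): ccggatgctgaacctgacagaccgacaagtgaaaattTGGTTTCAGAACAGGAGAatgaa
Hoxd11 (chr2:74522028-74522087, plus strand): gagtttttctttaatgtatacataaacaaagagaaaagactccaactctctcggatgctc
Codons for the helix core occurred in a forward frame of 5 of all 56605 probes (0.00883%), 2 of them Hox probes, and codons for the hexapeptide core in 2 (0.00353%), 1 of them the Hoxa6 probe. The accessions of the brightest Hoxb3 probe name a Hoxd3 transcript beside Hoxb3, the only such case among the 46 Hox probes whose accessions matched a RefSeq gene, so its signal cannot be given to Hoxb3 alone. In the array files 51 of the 52 probes lay on the same strand as the rest of their cluster. The exception was a second probe of Hoxb2, which was at background.

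The mutated gene was read first. Zbtb16 had processed signals of 433 and 546 in wild type and of 172 and 211 in lu/lu (array units, arrays 1 and 2). The log2 ratio of lu/lu over wild type was -1.33 and -1.37, a mean of -1.35 ± 0.03 (SD, n = 2 arrays), with a limma adjusted p of 0.252 over 23284 genes. Both lu/lu signals lay below both wild-type signals. A point mutation need not alter the amount of RNA, so this value does not by itself check the labels.

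Few Hox genes gave a signal that the scanner software placed well above background, which here requires a margin set by a multiplier of 13 on the background error. Of the 39 genes, 8 were well above background in both channels of both arrays (20.5%, against 62.8% of all genes). Another 12 were above it in some channels, and 19 in none (48.7%, against 21.6%). In RNA from a whole tissue piece, fewer cells of a type and less RNA per cell cannot be told apart. By probe, 10 of 52 were above background in all 4 channels (19.2%, against 60.0% of all probes), 3 in 3, 2 in 2, 8 in 1 and 29 in none. The study's methods count a spot as positive at a processed signal over 200 with a signal-to-noise ratio of at least 5, without naming the channels that must reach it. Required in every channel this left 10600 genes and no Hox gene, and required in at least 1 channel of each array it left 11079 genes and again no Hox gene. A Hox probe exceeded 200 in a single channel, wild type on array 1, where Hoxb3 read 220, whereas between 24.4% and 24.5% of all probes did so in each channel.

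Detection in all channels was counted by cluster. In HoxA 4 of 11 genes were above background in all channels, in HoxB 3 of 10, in HoxC 1 of 9 (Hoxc8) and in HoxD none of 9. The genes above background in no channel followed another order, with 5 of 11 in HoxA, 4 of 10 in HoxB, 5 of 9 in HoxC and 5 of 9 in HoxD. By paralogue group, the anterior genes of groups 1 to 4 had 3 of 12 (Hoxa4 and Hoxb3 among them), the central groups 5 to 8 had 3 of 11 (Hoxa6, Hoxb6 and Hoxc8), and the posterior groups 9 to 13 had 2 of 16 (Hoxa9 and Hoxb9). None of the genes of groups 10 to 13 was above background throughout. Groups 9 to 13 also had the largest share of genes at background in every channel, 10 of 16, against 5 of 12 and 4 of 11. These are counts of probes that differ in sequence, so they order neither the genes nor the clusters by RNA abundance.

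Detection did not follow genotype. On array 1 the wild-type channel had 10 Hox probes above background and the lu/lu channel 16, while on array 2 wild type had 19 and lu/lu 16. The order of the genotypes thus turned between arrays. The wild-type channel of array 1 was the least sensitive for all probes too, with 60.5% of them above background against 72.2% to 73.6% in the other channels, and its lowest signal called above background was 12.3, against 5.88 to 6.85. None of the negative control spots (275 on array 1 and 291 on array 2) was called above background in any channel.

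Of the 8 genes detected throughout, 7 are described in full. They were named for being so measured, after their values were seen. Hoxa4, of paralogue group 4, read 20.3 and 20.6 on array 1 and 38.0 and 37.5 on array 2, wild type first. Both genotypes of Hoxa4 moved together between the arrays, and its ratios were 0.02 and -0.02 (limma adjusted p = 0.989).

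Hoxb3, a paralogue group 3 gene of the posterior hindbrain, had 3 probes, all above background in all channels. Its brightest probe read 220 and 190 on array 1 and 182 and 177 on array 2, wild type first, with log2 ratios of -0.21 and -0.04 (limma adjusted p = 0.532). A second probe, spliced across an intron (chr11:96202427-96205434), read 148 and 162, then 156 and 184, with ratios of 0.14 and 0.24. The last probe gave 0.05 and -0.18. The 3 probes therefore did not share a direction.

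Of the central genes, Hoxa6 read 22.5 in wild type and 19.8 in lu/lu on array 1, and 14.1 and 14.8 on array 2, with ratios of -0.18 and 0.07 (limma adjusted p = 0.792). Hoxb6 read 17.2 and 11.9, then 12.3 and 11.3, with ratios of -0.53 and -0.12 (adjusted p = 0.331). Hoxc8, which patterns the thoracic region, read 20.4 and 15.9, then 27.1 and 24.4, with ratios of -0.36 and -0.15 (adjusted p = 0.318, the lowest of the 8). Hoxb6 and Hoxc8 were lower in lu/lu on both arrays, but neither by 1.3-fold on both.

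The 2 posterior genes detected were members of paralogue group 9, used in the trunk and limb. Hoxa9 read 50.1 and 39.3 on array 1 and 43.2 and 41.5 on array 2, wild type first, with ratios of -0.35 and -0.06 (limma adjusted p = 0.418). Hoxb9 read 19.5 and 26.6, then 27.0 and 27.5, with ratios of 0.45 and 0.03 (adjusted p = 0.425). Each had further probes that were at background in all 4 channels: 2 for Hoxa9 and 1 for Hoxb9. Detection of these genes thus rested on 1 probe each, which for Hoxa9 was the spliced one.

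**Figure D1:**
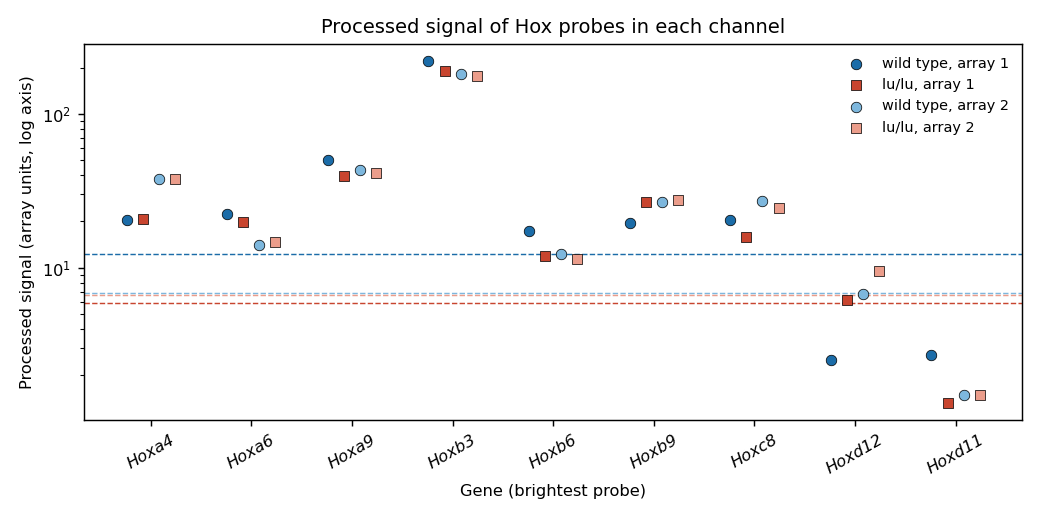
Processed signal (array units, log axis) of the brightest probe of 7 Hox genes detected in all channels and of Hoxd12 and Hoxd11, 1 point per channel. Dashed lines give the lowest signal called well above background in the channel of the same colour. For the 7 detected genes the 2 genotypes lie within 1.3-fold on each array, except Hoxb6 and Hoxb9 on array 1. Hoxd12 lies higher in lu/lu on both arrays, and Hoxd11 lies below every line.

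None of the 8 Hox genes detected throughout differed between genotypes by the rule used here, over 1.3-fold in 1 direction on each array, the fold being that of the methods. Among the 23284 genes above background in all channels, 586 were higher in lu/lu by this rule (2.52%) and 481 lower (2.07%), against 0 and 0 of the 8 Hox genes. With only 8 genes, 0 is also what shares of this size give. Under the signal filter of the methods, which left no Hox gene, 274 of 10600 genes were higher (2.58%) and 78 lower (0.736%). The 8 genes had a median ratio of -0.09 (log2 scale; -0.20 on array 1 and -0.03 on array 2), beside 0.00 for all genes, and the means of the 7 described genes ran from -0.33 (Hoxb6) to 0.24 (Hoxb9). There were 5 genes with a negative and 3 with a positive mean. In limma no Hox gene passed an adjusted p of 0.05 and none an unadjusted p of 0.05, and the lowest adjusted p was 0.318. Over all 23284 genes limma called none higher (0%) and none lower (0%) at that adjusted p, while 2067 higher and 1889 lower genes had an unadjusted p under 0.05. In simulated data of this size limma recovered between 0% and 64.5% of changes of 1 on the log2 scale, and between 91.5% and 98% of changes of 2, so its count says little about Hox changes smaller than that. The fold rule, counted there in the higher direction only, recovered 96.5% to 99% of changes of 1. It also called 117 to 152 genes higher that had not been changed. Variances were drawn from the fit to all 23284 genes, so recovery for the dim Hox genes alone was not simulated.

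**Figure D2:**
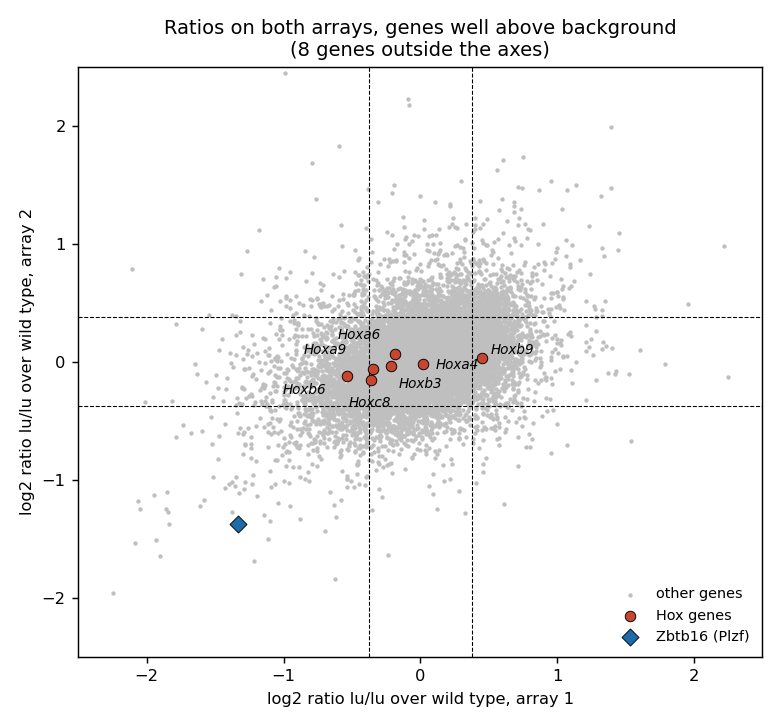
Log2 ratio of lu/lu over wild type on array 1 (x) against array 2 (y) for genes well above background in all channels (grey), 7 Hox genes (red) and Zbtb16 (blue diamond). Dashed lines mark 1.3-fold; none of these Hox genes lies beyond them in the same direction on both axes, and Zbtb16 lies at -1.33 and -1.37.

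The gap between the log2 ratios of array 1 and array 2 had a median of 0.27 over the 8 Hox genes and of 0.20 over the 11867 other genes in the same range of signal (13.01 to 192). The Hox ratios were in this sense no more repeatable than those of other dim genes. Their levels moved between the arrays in both genotypes alike for some genes. Relative to the median of all genes, Hoxa4 was higher on array 2 by 0.88 in wild type and 0.85 in lu/lu on the log2 scale, and Hoxc8 by 0.38 and 0.61. Hoxa6 was lower on array 2, at -0.69 and -0.43. For these 3 genes the step between arrays was larger than the difference between genotypes.

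The remaining 31 genes had at least 1 channel that was not well above background. Hoxa3, Hoxa7 and Hoxc6 missed it only in wild type on array 1. Hoxc6 read 13.1 and 16.4 on array 1 and 15.5 and 18.2 on array 2, wild type first, and a second probe above background on array 2 alone read 15.0 and 18.9 there. Its ratios were 0.33 and 0.24 for the first probe and 0.37 and 0.34 for the second, short of 1.3-fold at each. Hoxa3 had ratios of 0.25 and -0.38 and Hoxa7 of -0.05 and -0.41. Hoxb2, Hoxb4, Hoxb7, Hoxc10 and Hoxd1 were above background only in wild type on array 2. Hoxc13 and Hoxd8 were so only in lu/lu on array 1, and Hoxd13 only in lu/lu on array 2.

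Hoxd12, a gene of the distal limb and genital bud, was the only Hox gene above background on both arrays in 1 genotype and on neither in the other. It read 2.53 in wild type and 6.19 in lu/lu on array 1, and 6.73 and 9.54 on array 2. After the arrays were scaled to each other by quantiles of average intensity, the mean of its lu/lu log2 signals corresponded to 7.72. This was lower than the bound of 8.97 that the wild-type channels allow on the same scale, so no fold can be given. The same pattern was found for 732 probes on the array (1.29%) and the reverse for 35 (0.0618%), beside the higher detection limit of the wild-type channel on array 1.

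Without any filter on signal, 11 of these 31 genes passed 1.3-fold in 1 direction on both arrays, and they are named here after their values were seen. Higher in lu/lu were Hoxa2, Hoxa5, Hoxc13, Hoxd4, Hoxd12 and Hoxd13, and lower were Hoxa11, Hoxb2, Hoxb7, Hoxc9 and Hoxc10. Of all 37071 genes 1695 were higher (4.57%) and 2173 lower (5.86%) when unfiltered. Among the 13787 genes below the detection rule, 8.04% were higher and 12.3% lower, against 6 and 5 of the 31 Hox genes (19.4% and 16.1%). No signal of the 11 genes exceeded 9.54 in any channel. In 6 of the 11 at least 1 signal was a surrogate, the value the software writes in place of a spot too dim to measure.

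The highest of these ratios was that of Hoxd13, which shapes digits and genitalia. It read 2.78 and 4.85 on array 1 and 1.70 and 9.04 on array 2, wild type first, for log2 ratios of 0.80 and 2.41. Only the lu/lu signal of array 2 was above background. Hoxd4 read 2.52 and 5.85, then 1.72 and 3.82, for ratios of 1.22 and 1.15, with no channel above background. Hoxc13, a gene of hair and nail, read 3.16 and 8.83, then 3.82 and 5.81, for ratios of 1.48 and 0.61. Its second probe, above background in no channel and a surrogate in 3 of 4, gave -0.43 and 0.01. In the other direction, Hoxb2, a gene of the anterior hindbrain, read 7.16 and 4.12, then 7.93 and 3.72, for ratios of -0.80 and -1.09. Hoxc10 read 3.50 and 2.51, then 7.25 and 1.85, for ratios of -0.48 and -1.97. The wild-type and lu/lu signals of these genes lay at or near the limit of detection, so the ratios carry no measured fold.

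The dimmest probes show what such ratios hold. Where both channels of a Hox probe were surrogates, 12 probes on array 1 gave log2 ratios from -1.05 to -0.98 and 9 on array 2 gave -0.0041 to 0.049. In 7 probes all 4 channels were surrogates, among them the Hoxc11 and Hoxd11 probes printed above. Hoxd11 read 2.70 and 1.33 on array 1 and 1.48 and 1.501 on array 2. Its ratio of -1.02 on array 1 came from 2 surrogate values and is no measurement. Hoxc11 gave -1.02 and 0.03 in the same way.

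**Figure D3:**
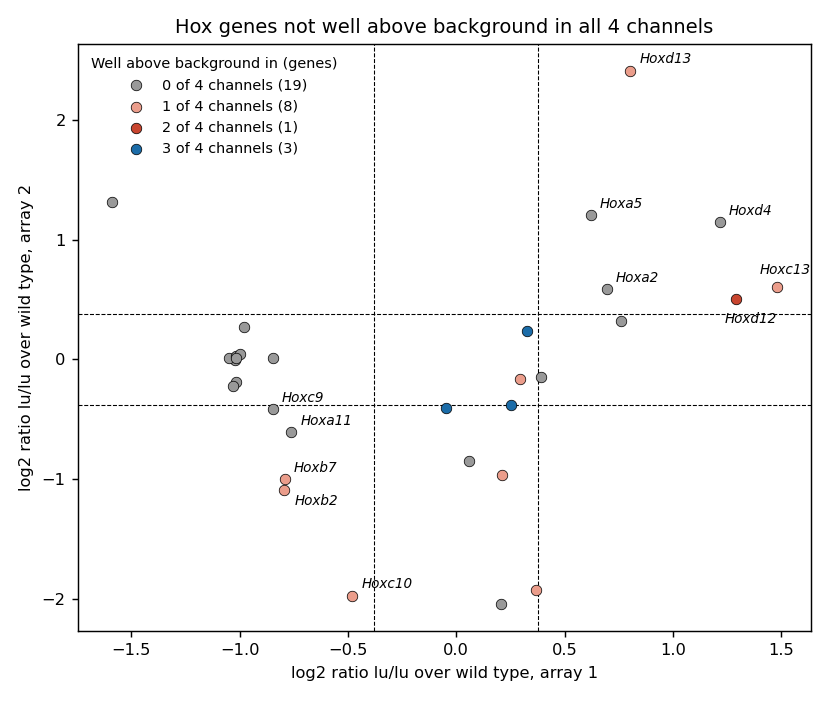
Log2 ratio of lu/lu over wild type on array 1 (x) against array 2 (y) for the 31 Hox genes not well above background in all 4 channels, coloured by the number of channels that were. Dashed lines mark 1.3-fold and the 11 genes past it in 1 direction on both arrays are named; the cluster of grey points near -1 on array 1 and 0 on array 2 holds the genes read from surrogate values.

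Probe composition differed with detection. The 10 Hox probes above background in all channels had a median GC content of 47.5% and the other 42 of 37.5%, beside 43.3% and 40.0% for all probes split the same way. Its part in the detection of Hox genes was not tested.

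Noncoding transcripts of the clusters were read beside the coding genes. Of 9 noncoding Hox transcripts on the array, 6 were above background in all channels (66.7%, near the 62.8% of all genes). Hoxb5os, an antisense transcript of HoxB, was the only one past the signal filter of the methods. It read 804 in wild type and 600 in lu/lu on array 1, and 715 and 626 on array 2, for log2 ratios of -0.42 and -0.19 (limma adjusted p = 0.287). It was lower in lu/lu on both arrays but passed 1.3-fold only on the first. Hottip, at the 5′ end of HoxA, had ratios of 0.30 and 0.11. HOTAIR, a HoxC transcript, was above background in no channel. None of the 6 detected transcripts passed the fold rule, and their median was -0.15. It rested on array 1, at -0.30, with 0.01 on array 2, and was -0.0418 with normexp background correction and loess.

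Genes that flank the clusters were nearly all detected, 15 of 16. Of these 15, 1 was lower by the fold rule, beside 2.07% of the 23284 genes tested. It was Ttll6 beside HoxB, at -0.45 and -0.38 (limma adjusted p = 0.252). The median ratio of the 15 was -0.09. Ttll6 did not pass with normexp and loess, after the GC correction or with the mean over probes, and the median was 0.0094 on array 2 alone. Evx2, the neighbour of Hoxd13, was above background throughout at 155 and 150 on array 1 and 154 and 162 on array 2, wild type first, with ratios of -0.05 and 0.07. A gene next to HoxD was thus measurable on these arrays, and its readings were close between genotypes.

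The partners and regulators of Hox genes were present. All 9 Pbx, Meis and Pknox cofactors were above background, 7 of them past the signal filter of the methods, and 0 passed the fold rule (median 0.05). Among them Meis1, which stabilises Hox binding, had ratios of 0.56 and 0.33, past 1.3-fold on array 1 alone. All 10 trithorax and polycomb genes, which hold Hox genes in their active or silent state, were above background, and 0 passed the rule (median 0.02). Of 9 genes that posteriorise the axis, 6 were detected (66.7%, near the 62.8% of all genes). Of these 6, 2 were lower by the fold rule, beside 2.07% of the 23284 genes tested. The 2 were Wnt3a, at -1.33 and -1.11, and Aldh1a2, the retinoic acid synthesising enzyme, at -0.80 and -0.44 (limma adjusted p = 0.252 for each). With normexp background correction Wnt3a passed and Aldh1a2 did not. Cdx2 and Cdx4, direct activators of Hox genes in the tail bud, were in no channel above background.

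Since Hox RNA reaches forward into the hindbrain, regional markers were read beside it. Of 12 hindbrain markers 7 were above background in all channels (58.3%, against 62.8% of all genes). Of these 7, 4 were lower in lu/lu by the fold rule, beside 2.07% of the 23284 genes tested. The median over the 7 was -0.52. Gbx2, which sets the front border of the hindbrain, read 34.7 in wild type and 7.29 in lu/lu on array 1, and 38.7 and 9.93 on array 2, for ratios of -2.25 and -1.96. Olig3 was at -1.23 and -1.03 and Cyp26c1 at -0.40 and -0.65. These 3 genes each had a limma adjusted p of 0.252. With normexp background correction the median was -0.10 (loess) or -0.31 (median centring, where the median of all genes was 0.32). With each, 3 markers passed the fold rule, as after the GC correction. Gbx2 and Olig3 were among them each time and Cyp26c1 was not. Egr2, the defining gene of rhombomeres 3 and 5, was above background in 3 of 4 channels, reading 9.96 and 10.2 on array 1 and 11.4 and 12.9 on array 2, for ratios of 0.03 and 0.17. The summed signal of the 12 markers was 521 and 659 in wild type and 329 and 552 in lu/lu. Hindbrain markers were thus detected at a share near that of all genes, and some were lower. The 8 Hox genes did not pass the rule, and the part of hindbrain tissue in either was not tested.

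Markers of the labelled tissue were present. All 11 forebrain markers were above background, of which 5 were higher in lu/lu by the fold rule and 0 lower (median 0.54). By the same rule 2.52% of the 23284 genes tested were higher and 2.07% lower. With normexp and median centring 8 forebrain markers were higher. With the mean over probes 4 were, and the median was 0.38. Of 10 midbrain markers 9 were above background. Otx2 was higher, at 0.38 and 0.39, and En2 lower, at -1.86 and -1.25 (median of the 9: -0.05). Otx2 did not pass with normexp and loess, after the GC correction or with the mean over probes, while En2 passed in each. En1, a midbrain gene, was above background in no channel, so a probe at background is not read here as absent RNA. Markers of tissue outside the neural tube were also read, beside the 62.8% of all genes above background in all channels. Their counts by the fold rule stand beside the same 2.52% higher and 2.07% lower. Branchial arch crest and mesenchyme had 11 of 13 above background (1 higher, 2 lower). Trunk and limb mesoderm had 7 of 10, near that share (0 higher, 2 lower). With normexp and loess the crest list had 1 higher and 0 lower, and the trunk list 0 higher and 1 lower. With normexp and median centring the crest list had 5 higher and 0 lower, and the trunk list 1 and 1. Endothelium had 10 of 10 (0 higher, 5 lower, but 2 and 1 lower with normexp and loess or median centring). Erythroid cells had 10 of 10 (0 and 0) and macrophages 7 of 8 (0 and 0). No gene of any list passed a limma adjusted p of 0.05. The median over erythroid genes was -0.98 on array 1 but 0.05 on array 2. The part of these tissues in the Hox readings was not tested.

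**Figure D4:**
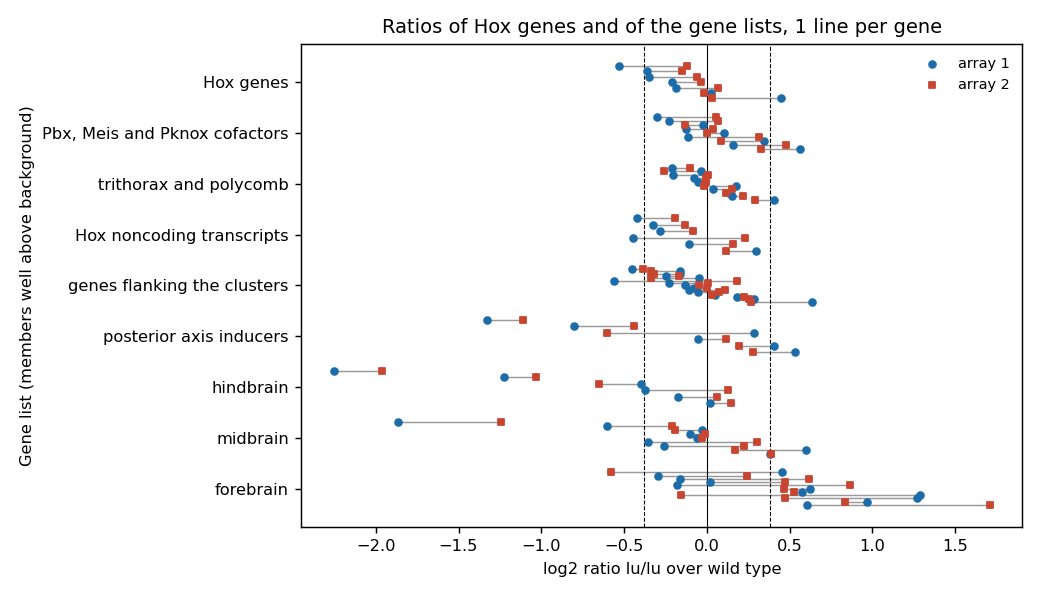
Log2 ratio of lu/lu over wild type for 7 Hox genes and for the reported list members well above background in all channels (1 hindbrain marker is not drawn), 1 line per gene joining array 1 (blue circles) to array 2 (red squares). Dashed lines mark 1.3-fold; Hox genes, cofactors, trithorax and polycomb genes and noncoding transcripts cross them on 1 array at most, whereas Gbx2, Olig3, Cyp26c1, Wnt3a, Aldh1a2 and En2 lie to the left on both.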

How the data were processed

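RNA of E10.5 forebrain and midbrain was hybridised to 2 arrays, wild type in Cy3 and lu/lu in Cy5. The authors deposited Feature Extraction 10.7.3.1 files, whose processed signals are background-subtracted, dye-normalized intensity values (array units) with surrogates for dim spots. These files hold a log10 ratio, and a deposited table holds it as log2. Coordinates are mm9. Control spots and those marked as outliers were dropped. Repeated spots were averaged per probe as log2 values, and the brightest probe stood for a gene. Ratios were tested with limma 3.58.1 in R 4.3.3 (lmFit, eBayes, Benjamini-Hochberg over all genes tested) and by the methods' 1.3-fold, required here on each array. The methods' signal filter left no Hox gene, so genes well above background in all 4 channels were used. An exact sign-flip test with 2 arrays cannot go below p = 0.5. The fits were tested on simulated data. The number of arrays limits the precision. The rule for named genes covered Hox genes past a filter or fold rule or with a bound, list members past the fold rule, Egr2, Gbx2 and Zbtb16, and some genes and sequences under it are not reported here. The members and lists were chosen with earlier results of these data known. Alternatives were filters, normexp background correction, the deposited log2 values, probe averaging, a GC correction, other folds and single arrays.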

Additional observations from a re-analysis of the deposited data

How the results depend on the processing

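Across the normalizations, probe rules and fold thresholds tried, 0 Hox genes passed the fold rule in either direction and 0 passed a limma adjusted p of 0.05. Without a filter on signal 6 were higher and 5 lower by the fold rule, with a median of -0.26, since genes at background then entered. On single arrays, among the 8 genes detected on both, 1 gene was higher on each (a range of 1 to 1) and 0 to 1 lower. With detection judged on array 2 alone 11 Hox genes were detected. These included Hoxa3 and Hoxa7, which were lower there past the fold, at -0.38 and -0.41. The methods' signal filter, in all channels or in 1 channel of each array, left no Hox gene, so 0 counted as detected, while the software's weaker flag for a positive and significant signal counted 19. Hoxa4 turned to -0.0264 with normexp and loess and to -0.0786 with normexp and median centring, and ran from -0.0162 to 0.0221 over single arrays. Hoxa6 turned to 0.00906 after the GC correction and ran from -0.184 to 0.0667. Hoxb3 turned to 0.26 with normexp and median centring, which shifted the median of all genes by 0.32 and left the Hox median at -0.38 relative to it. Under that centring 5 cofactors, 6 trithorax and polycomb genes and 5 flanking genes passed as higher, against 0 of each in the reported values. Hoxa4 and Hoxa6 have no settled direction. Hoxb3 turned under a centring that raised the median of all genes but left that of the Hox genes at -0.07. The cause of these shifts was not tested. The ratio of Zbtb16 was smaller with normexp and loess (-1.20, limma adjusted p = 0.0342). With normexp and median centring it was -0.79, beside a median of 0.32 for all genes (limma adjusted p = 3.27e-05). Its adjusted p was 0.248 to 0.506 under the other settings tested. The ratios pair the genotypes within each array, and without that pairing limma again called 0 Hox genes.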
